A study of Saccharomyces cerevisiae BY4741 with 12 samples.

Results

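The 8 genes described here encode the glycine cleavage system and the enzymes that pass one-carbon units between serine, glycine and folate in Saccharomyces cerevisiae: SHM1 (YBR263W), SHM2 (YLR058C), GCV1 (YDR019C), GCV2 (YMR189W), GCV3 (YAL044C), LPD1 (YFL018C), MTD1 (YKR080W) and MIS1 (YBR084W). They are 8 of the 6632 annotated rows in the authors' FPKM sheet, and were selected by name from that sheet with their means in all 4 strains already known, so their levels and differences are given as a description and without a test. Polyadenylated RNA was sequenced with its strand kept from 3 mutants and the WT, all in the BY4741 background: set2Δ, which lacks the H3K36 methyltransferase Set2 and carries the empty LEU2 plasmid pRS415; set2-Y149F and set2-Y236F, in which a set2Δ strain expresses Set2 with the tyrosine named in the allele changed to phenylalanine, from pRS415; and the WT, for which the methods name no plasmid. As background, Y149F leaves Set2 able to trimethylate H3K36 and Y236F leaves it the mono- and dimethylated states. Cultures at 30 °C were started from an OD600 of 0.2 and taken at 0.8, in YPD or SD medium. Neither the labels nor the methods say which strain grew in which medium, nor do they list a set2Δ strain rescued with an unmutated SET2 plasmid, so effects of medium, plasmid and mutation cannot be told apart.

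FPKM scales mapped fragments by transcript length and by the number mapped, so levels of different genes can be compared. The labels give 3 libraries per strain, but each strain is deposited as 1 mean, with neither a spread nor a depth, and no difference below was checked against replicates here. Many of these means end in digits that a sum of 2 values divided by 2 can give, which leaves the number of libraries in each mean uncertain. SET2 RNA went with the labels, at 0.190 FPKM in set2Δ, 253 FPKM in set2-Y149F and 271 FPKM in set2-Y236F, against 29.1 FPKM in the WT, so the point mutants carried more SET2 RNA than the WT. The pRS415 marker LEU2 stood at 6023 FPKM in set2Δ, 1775 FPKM in set2-Y149F and 1890 FPKM in set2-Y236F, against 3209 FPKM in the WT. BY4741 itself lacks LEU2, so the WT also had a source of LEU2 RNA, which the methods do not name. The part of SET2 dose and of LEU2 in the differences below was not tested. Of the markers of the MATa mating type of BY4741, MFA1, MFA2, STE2 and BAR1 were between 46.9 and 2123 FPKM in the 4 strains. The MATα genes (MFALPHA1, MFALPHA2 and STE3) lay between 0.539 and 4.77.

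Folate carries one-carbon units between their donors and the pathways that use them. Serine hydroxymethyltransferase moves the hydroxymethyl carbon of serine to tetrahydrofolate and leaves glycine, in the mitochondrion as Shm1 and in the cytosol as Shm2. The mitochondrial glycine cleavage system breaks glycine down to carbon dioxide and ammonia and passes its remaining carbon to tetrahydrofolate. Gcv2 is its decarboxylating P protein, Gcv3 the H protein that carries the lipoyl arm, Gcv1 the aminomethyltransferase or T protein, and Lpd1 the dihydrolipoamide dehydrogenase or L protein, which is also a subunit of the pyruvate and 2-oxoglutarate dehydrogenases. Mis1 is the mitochondrial C1-tetrahydrofolate synthase and Ade3 its cytosolic counterpart, and Mtd1 is a cytosolic NAD-dependent methylenetetrahydrofolate dehydrogenase. The carbon is used in the synthesis of purines, thymidylate and methionine. Transcription of several of these genes is known to depend on Bas1 and Pho2, which also act on the ADE genes, and on Gcn4, and the GCV genes are known to respond to glycine.

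The upstream regions of SHM2, MTD1, GCV1, GCV2, GCV3 and LPD1 are shown because these genes share a short sequence, TGACTC, the core of the sites that Gcn4 and Bas1 bind. Letters come from the RefSeq R64 genome (sacCer3), each stretch is read along the strand of its gene, and capitals mark TGACTC or its reverse complement GAGTCA. Each stretch runs from 20 bases before the first to 20 bases after the last match that lies outside any coding sequence.
SHM2: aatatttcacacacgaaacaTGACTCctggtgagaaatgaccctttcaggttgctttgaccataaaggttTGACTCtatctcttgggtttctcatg
MTD1: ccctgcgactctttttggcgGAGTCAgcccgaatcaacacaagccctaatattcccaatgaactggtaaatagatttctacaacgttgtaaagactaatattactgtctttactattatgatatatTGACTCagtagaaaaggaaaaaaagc
GCV1: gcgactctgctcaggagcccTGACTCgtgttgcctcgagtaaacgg
GCV2: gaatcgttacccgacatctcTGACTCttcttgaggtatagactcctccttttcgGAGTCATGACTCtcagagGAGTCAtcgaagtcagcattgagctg
GCV3: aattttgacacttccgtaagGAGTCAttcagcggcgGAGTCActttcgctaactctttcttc
LPD1: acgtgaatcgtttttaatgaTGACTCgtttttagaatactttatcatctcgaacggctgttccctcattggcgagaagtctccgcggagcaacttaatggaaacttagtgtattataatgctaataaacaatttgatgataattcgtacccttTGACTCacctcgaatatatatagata

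The SHM2 stretch lies at chrXII:259603-259698 on the minus strand, from 297 to 202 bases before the start codon. That of MTD1 lies at chrXI:590095-590246 on the plus strand, starting 300 bases before the codon, and that of GCV2 at chrXIII:637189-637286 on the plus strand, 311 to 214 bases before it. Those of GCV1 (chrIV:485483-485528) and GCV3 (chrI:58534-58595) are on the minus strand and nearer to the gene, at 163 to 118 and 133 to 72 bases before the codon. That of LPD1 lies at chrVI:103216-103394 on the minus strand, 267 to 89 bases before it. In the 500 bases upstream, TGACTC occurred on either strand 4 times for SHM2 and for GCV2, 2 times for GCV3, LPD1 and MTD1 and 1 time for GCV1, and was not found for SHM1 and MIS1. The distal 2 matches of SHM2, at 414 and 390 bases, lie in the coding sequence of YLR059C. Thus 6 of the 8 genes held the sequence and 5 held it more than once, where 12.7% and 1.43% of 6006 nuclear genes did in windows of the same length. CTTCTT, a core sequence of the glycine response described for GCV genes, was found on either strand upstream of SHM1, SHM2, GCV1, GCV2, GCV3 and MTD1, but it is common, with 52.8% of all genes holding it. The 2 matches of GCV3 and that of SHM1 lie in a neighbouring coding sequence, the 2 of MTD1 overlap each other, and that of GCV2 shares 1 base with a TGACTC. These matches are letters in a window and were not tested as binding sites.

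**Figure D1:**
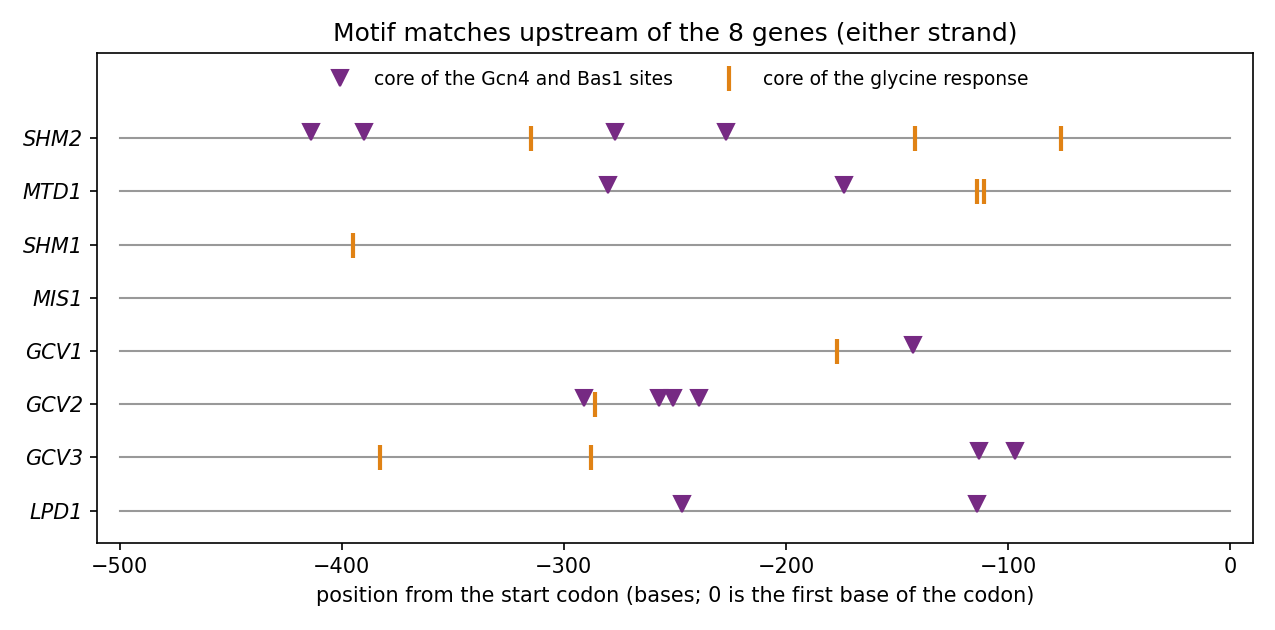
Matches to TGACTC (triangles, core of the Gcn4 and Bas1 sites) and to CTTCTT (bars, core of the glycine response) on either strand in the 500 bases upstream of each gene, with the distance from the start codon in bases on the x axis. SHM2 and GCV2 have 4 triangles each, whereas SHM1 and MIS1 have none.

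SHM2 was the most abundant of the 8 RNAs in the WT and had the largest difference of the 8 in each mutant. Its gene lies on the minus strand of chromosome XII from 257992 to 259401. SHM2 was at 447 FPKM in set2Δ, 604 FPKM in set2-Y149F and 425 FPKM in set2-Y236F, against 1282 in the WT, so that the mutants held 34.8%, 47.1% and 33.1% of the WT level. Ranked by level among the 6632 rows, SHM2 was number 370 in set2Δ, number 254 in set2-Y149F and number 401 in set2-Y236F, against number 115 in the WT. All differences below are in log2 of FPKM + 1, on which scale SHM2 differed from the WT by -1.52 for set2Δ, -1.09 for set2-Y149F and -1.59 for set2-Y236F. In set2Δ it was the 14th lowest difference of all rows, in set2-Y236F the 15th and in set2-Y149F the 105th. A row was called lower or higher at a difference of 2-fold on this scale, and SHM2 was called lower in all 3 mutants. In set2-Y149F this call was only just kept when the strains were scaled to the same median (-1.003).

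The mitochondrial isozyme SHM1 (chromosome II, 736264 to 737736, plus strand) varied far less. SHM1 was at 217 FPKM in set2Δ, 193 FPKM in set2-Y149F and 229 FPKM in set2-Y236F, against 250 in the WT, with differences of -0.20, -0.37 and -0.12. The cytosolic gene therefore outnumbered the mitochondrial one 2.06 to 1 in set2Δ, 3.13 to 1 in set2-Y149F and 1.85 to 1 in set2-Y236F, against 5.13 to 1 in the WT. As a share of both, SHM2 made up 67.3%, 75.8% and 64.9% in the mutants and 83.7% in the WT. Such a ratio within a strain does not depend on how the strains were scaled to each other. The paralogs have no stretch of 75 bases, the read length, in common with each other or with any other place in the genome: all 1399 windows of the coding sequence of SHM1 and all 1336 of SHM2 were unique, as were those of the other 6 genes.

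GCV2, the largest of the group at 3105 bases of coding sequence (chromosome XIII, 637500 to 640604, plus strand), had the second largest differences in every mutant. GCV2 was at 79.3 FPKM in set2Δ, 95.9 FPKM in set2-Y149F and 73.0 FPKM in set2-Y236F, against 196 in the WT, which are 40.5%, 49.0% and 37.3% of the WT level. Its differences were -1.29, -1.02 and -1.41, and it was called lower in the 3 mutants. In set2-Y149F this call lies at the threshold: it was lost at a pseudocount of 10 (-0.96) and when the strains were scaled to the same median (-0.94) or upper quartile (-0.99).

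The other subunits of glycine cleavage differed less than GCV2, in the order GCV1, GCV3 and LPD1 in set2Δ and set2-Y236F. GCV1 (chromosome IV, 484163 to 485365, minus strand) was at 175 FPKM in set2Δ, 230 FPKM in set2-Y149F and 189 FPKM in set2-Y236F, against 313 in the WT, with differences of -0.83, -0.44 and -0.73. GCV3 (chromosome I, 57950 to 58462, minus strand), which encodes the small lipoyl carrier, had 448, 392 and 446 FPKM in the same mutants, against 635 in the WT, with differences of -0.50, -0.70 and -0.51. LPD1, on the minus strand of chromosome VI from 101628 to 103127, had 339, 341 and 358 FPKM in set2Δ, set2-Y149F and set2-Y236F, against 453 in the WT, with differences of -0.42, -0.41 and -0.34. None of these 3 genes reached 2-fold in any mutant. Relative to GCV2 their RNAs stood higher in the mutants: GCV3 was 5.66 times GCV2 in set2Δ, 4.08 times in set2-Y149F and 6.11 times in set2-Y236F, against 3.25 times in the WT. LPD1 was 4.28, 3.55 and 4.91 times GCV2 in these mutants, against 2.31 times in the WT. For GCV1 the ratios were 2.21, 2.40 and 2.59, against 1.60.

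**Figure D2:**
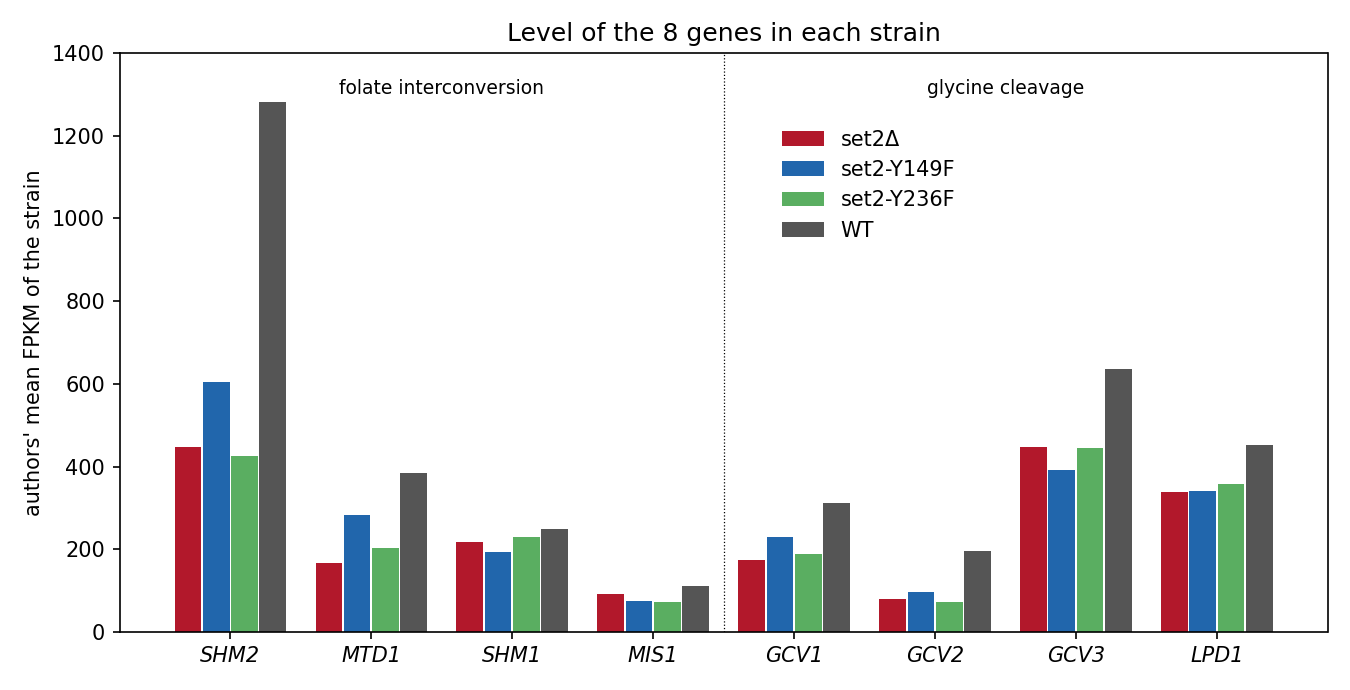
Mean FPKM of the 8 genes, with set2Δ, set2-Y149F, set2-Y236F and the WT from left to right for each gene; each bar is the authors' 1 mean and has no error bar. The WT bar is the tallest for all 8 genes, and the widest gap is at SHM2 (1282 FPKM in the WT).

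MTD1 was the gene that separated the mutants most. It lies on the plus strand of chromosome XI from 590395 to 591357. MTD1 was at 168 FPKM in set2Δ, 282 FPKM in set2-Y149F and 204 FPKM in set2-Y236F, against 384 in the WT, or 43.6%, 73.4% and 53.0% of the WT level. It was called lower in set2Δ (-1.19), lay just outside the threshold in set2-Y236F (-0.91) and was at -0.44 in set2-Y149F. The deletion differed from set2-Y149F by -0.75 for MTD1, the largest difference between any pair of mutants among the 8 genes. MIS1, the mitochondrial C1-tetrahydrofolate synthase (chromosome II, 411054 to 413981, plus strand), was the least abundant of the 8 in the WT and in both point mutants. MIS1 was at 91.0 FPKM in set2Δ, 73.9 FPKM in set2-Y149F and 72.7 FPKM in set2-Y236F, against 110 in the WT, with differences of -0.28, -0.57 and -0.60. Its cytosolic counterpart ADE3 was past 2-fold in the 3 mutants as deposited, at 176, 180 and 152 FPKM against 372 in the WT. ADE3 was accordingly 1.93, 2.43 and 2.09 times MIS1 in the mutants and 3.37 times in the WT.

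All 8 genes had a lower mean in each of the 3 mutants than in the WT, as did 36.2% of all annotated rows. At 2-fold, 3 of the 8 were lower in set2Δ (SHM2, GCV2 and MTD1), where 1.19% of all rows were; 2 were lower in set2-Y149F and 2 in set2-Y236F (SHM2 and GCV2 in both), where 2.07% and 1.87% of all rows were. SHM2 and GCV2 were lower in all 3 mutants, as were 0.422% of all rows. None of the 8 was 2-fold higher in set2Δ, set2-Y149F or set2-Y236F, where 2.88%, 3.57% and 3.47% of all rows were. The median difference of the 8 genes was -0.67 for set2Δ, -0.51 for set2-Y149F and -0.66 for set2-Y236F, and that of all annotated rows was -0.07, -0.04 and -0.02. These 3 comparisons share the WT mean, and the genes were chosen with these values known, so the counts describe the genes and support nothing further. In bulk RNA, fewer cells with a transcript and less of it per cell cannot be told apart. Summed over the 8 genes, the level was 1964 FPKM in set2Δ, 2210 FPKM in set2-Y149F and 1996 FPKM in set2-Y236F, against 3624 in the WT, and SHM2 made up 22.7%, 27.3% and 21.3% of that sum in the mutants against 35.4% in the WT.

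**Figure D3:**
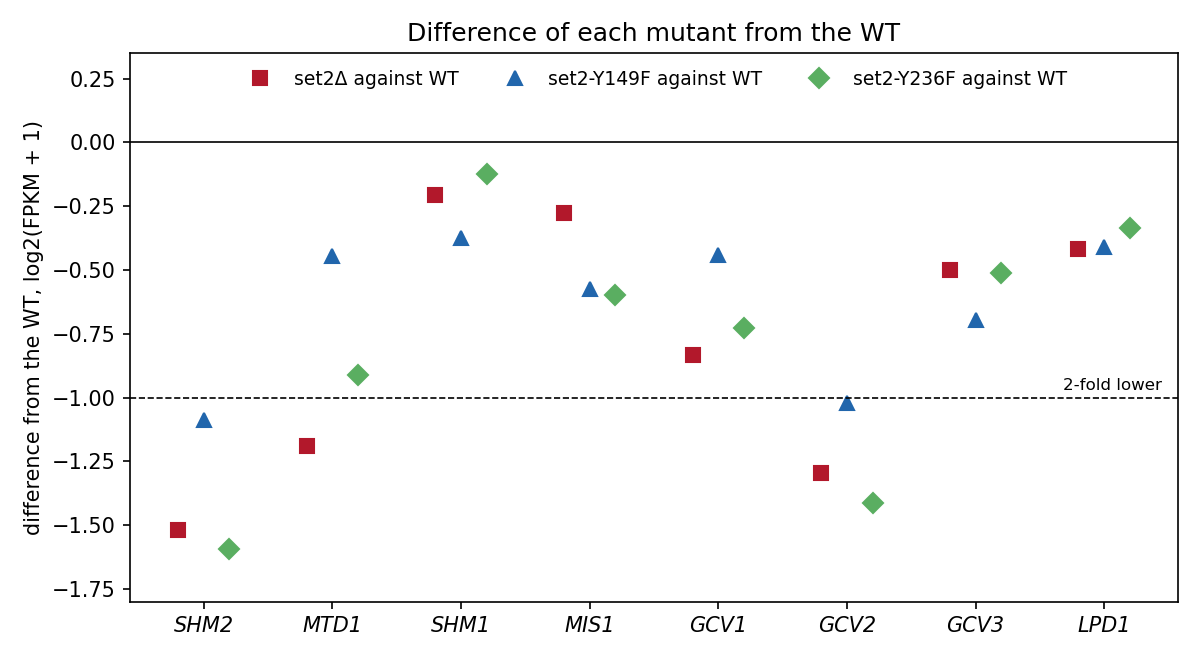
Difference of set2Δ (squares), set2-Y149F (triangles) and set2-Y236F (diamonds) from the WT for each gene, on the scale of log2(FPKM + 1); the dashed line marks 2-fold lower. All 24 points lie below 0, and 7 lie below the dashed line, those of SHM2 and GCV2 in the 3 mutants and that of MTD1 in set2Δ.

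The order of the genes also shifted. In set2-Y149F, as in the WT, the levels ran SHM2, GCV3, LPD1, MTD1, GCV1, SHM1, GCV2 and MIS1 from high to low. In set2Δ and set2-Y236F, GCV3 stood above SHM2, by 448 to 447 FPKM and by 446 to 425 FPKM, and SHM1 stood above MTD1 and GCV1, which were above it in the WT. In set2Δ GCV2 was the lowest, below MIS1. The highest level was 5.66 times the lowest in set2Δ, 8.16 times in set2-Y149F and 6.13 times in set2-Y236F, against 11.6 times in the WT. Without a spread, it cannot be said which neighbours in these orders differ.

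Between the mutants, 0 of the 8 genes reached 2-fold in any of the 3 pairs. In set2-Y149F against set2-Y236F, 0.317% of all rows were lower and 0.302% higher. The 8 genes had a median of 0.15 there, with SHM2 (0.51), MTD1 (0.47), GCV2 (0.39) and GCV1 (0.28) higher in mean in set2-Y149F and SHM1 (-0.25) and GCV3 (-0.19) lower in mean. In set2Δ against set2-Y149F, 1.76% of all rows were lower and 1.07% higher, and the 8 genes ran from -0.75 for MTD1 to 0.30 for MIS1. In set2Δ against set2-Y236F, 1.91% of all rows were lower and 1.07% higher, and the 8 genes were closest, from -0.28 for MTD1 to 0.32 for MIS1.

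The genes that use or interconvert folate-bound carbon outside the group were lower in part. Their medians were -0.36 for set2Δ, -0.16 for set2-Y149F and -0.22 for set2-Y236F. Of 8 such genes, 2 were 2-fold lower in set2Δ (MET6 and ADE3), as were the same 2 in set2-Y149F, while in set2-Y236F MET13 joined them to make 3, and 0 were higher. MET6, the methionine synthase that takes its methyl group from folate, was at 269 FPKM in set2Δ, 366 FPKM in set2-Y149F and 295 FPKM in set2-Y236F, against 756 in the WT, with differences of -1.49, -1.05 and -1.35. ADE3 differed by -1.08, -1.04 and -1.28, and MET13, the methylenetetrahydrofolate reductase that makes methyl-folate, by -0.87, -0.42 and -1.08. Scaled to the same median, 1 of these genes was lower in set2Δ (MET6), 0 in set2-Y149F and 2 in set2-Y236F (ADE3 and MET6), so the calls of ADE3 in set2Δ, of both genes in set2-Y149F and of MET13 in set2-Y236F lie at the threshold. The MET13 call was also lost at a pseudocount of 10, and that of ADE3 in set2Δ at the same upper quartile. Thymidylate synthase, CDC21, was at -0.38, -0.07 and -0.21, and MET12, FMT1, FAU1 and CAF17 did not reach 2-fold in any mutant. Folate synthesis itself, from GTP cyclohydrolase (FOL2) to the polyglutamate synthase (MET7), had 0 of 8 genes at 2-fold in either direction in any mutant, with medians of -0.32, -0.31 and -0.23.

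De novo purine synthesis, which takes 2 carbons of its ring from folate, had medians of -1.01 for set2Δ, -0.77 for set2-Y149F and -0.73 for set2-Y236F. Of its 10 genes, 5 were lower in set2Δ (ADE2, ADE4, ADE5,7, ADE6 and ADE17) and 4 in each point mutant, where ADE2 was at -0.38 and -0.52. In set2Δ 4 of the 5 stayed past 2-fold under either scaling, without ADE2, and 4 at a pseudocount of 10, without ADE4. In set2-Y149F, 2 of the 4 (ADE4 and ADE5,7) stayed past 2-fold when the strains were scaled to the same median. ADE17 and ADE16 encode isozymes of 1 enzyme of the pathway. ADE17 was at 421 FPKM in set2Δ, 485 FPKM in set2-Y149F and 444 FPKM in set2-Y236F, against 1001 in the WT, whereas ADE16 was at 250, 229 and 235 against 245. Like SHM2 and SHM1, this is an isozyme pair of which only 1 reached 2-fold, although that of ADE17 in set2-Y149F ends at the same median. The sequence TGACTC occurred upstream of 9 of the 10 genes, and more than once for 6. It also occurred upstream of 4 of 5 lipoate attachment genes and 5 of 8 folate synthesis genes, lists without a gene at 2-fold. In both lists 0 genes held it more than once. Glycine and serine supply, which had genes at 2-fold, held it in 3 of 7, likewise more than once for 0. One-carbon folate use held it in 3 of 8, with 2 more than once, and the other complexes with LPD1 in 3 of 7, with 0. Within the 8 genes, GCV3 and LPD1 held it 2 times and did not reach 2-fold. Among the rows that were lower in all 3 mutants and have a window, which include SHM2 and GCV2, 13 of 26 held it. For rows lower in set2Δ, set2-Y149F and set2-Y236F the counts were 22 of 65, 35 of 122 and 27 of 109. These are 33.8%, 28.7% and 24.8%, where 12.7% of all genes held it. The rows of each mutant include SHM2, GCV2 and the ADE genes named above, which were chosen with their values known. A part of Gcn4 or Bas1 in the differences was not tested.

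Glycine and serine supply was lower in part, with medians of -0.87, -0.76 and -0.65. SER3 and SER33 encode isozymes of phosphoglycerate dehydrogenase, the first enzyme of serine synthesis. SER3 was at 106 FPKM in set2Δ, 103 FPKM in set2-Y149F and 71.9 FPKM in set2-Y236F, against 272 in the WT (-1.36, -1.40 and -1.91), and SER33 was called lower in set2Δ alone (-1.03, -0.77 and -0.76). SER2, the phosphoserine phosphatase, was lower in both point mutants (-1.54 and -1.21) and at -0.87 in set2Δ. SER1, the phosphoserine transaminase, was only just past 2-fold in set2Δ, and was at 279 FPKM in set2-Y149F and 302 FPKM in set2-Y236F, against 473 FPKM in the WT. At a pseudocount of 10 and under either scaling, SER3 was the 1 gene of this list still called lower in set2Δ. GLY1, the threonine aldolase that makes most glycine on glucose, was at -0.59, -0.65 and -0.42. AGX1, which makes glycine from glyoxylate, went the other way: AGX1 was at 37.6, 35.3 and 36.6 FPKM in the mutants, against 19.5 in the WT, with differences of 0.92, 0.83 and 0.88 that did not reach 2-fold. Under either scaling AGX1 was past 2-fold higher in set2Δ.

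In median, the complexes that share LPD1 stayed near the WT. The 7 other subunit genes of the pyruvate and 2-oxoglutarate dehydrogenases had medians of -0.01 for set2Δ, -0.03 for set2-Y149F and -0.10 for set2-Y236F, with 0 at 2-fold, while LPD1 itself was at -0.42, -0.41 and -0.34. PDB1, the beta subunit of pyruvate dehydrogenase, was nearest to LPD1 in each mutant, at -0.31, -0.33 and -0.25. KGD1, the 2-oxoglutarate dehydrogenase, was at 0.16, 0.15 and -0.48, and so below LPD1 in set2-Y236F. The 5 genes of lipoate attachment, which equips Gcv3 with its lipoyl arm, had medians of -0.24, -0.22 and -0.14, again with 0 at 2-fold. Among the regulators, GCN4 RNA was at 1064 FPKM in set2Δ, 773 FPKM in set2-Y149F and 938 FPKM in set2-Y236F, against 1248 in the WT. BAS1 was at 16.9, 12.6 and 14.9 FPKM in these mutants, against 19.9, and PHO2 at 45.8, 77.3 and 51.5 against 44.9. Their differences, from -0.69 to 0.77, did not reach 2-fold. RNA levels say nothing of the activity of these factors, Gcn4 being controlled in its translation. Formate dehydrogenase, FDH1 and FDH2, was at 0.831 to 2.63 FPKM in the 4 strains.

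**Figure D4:**
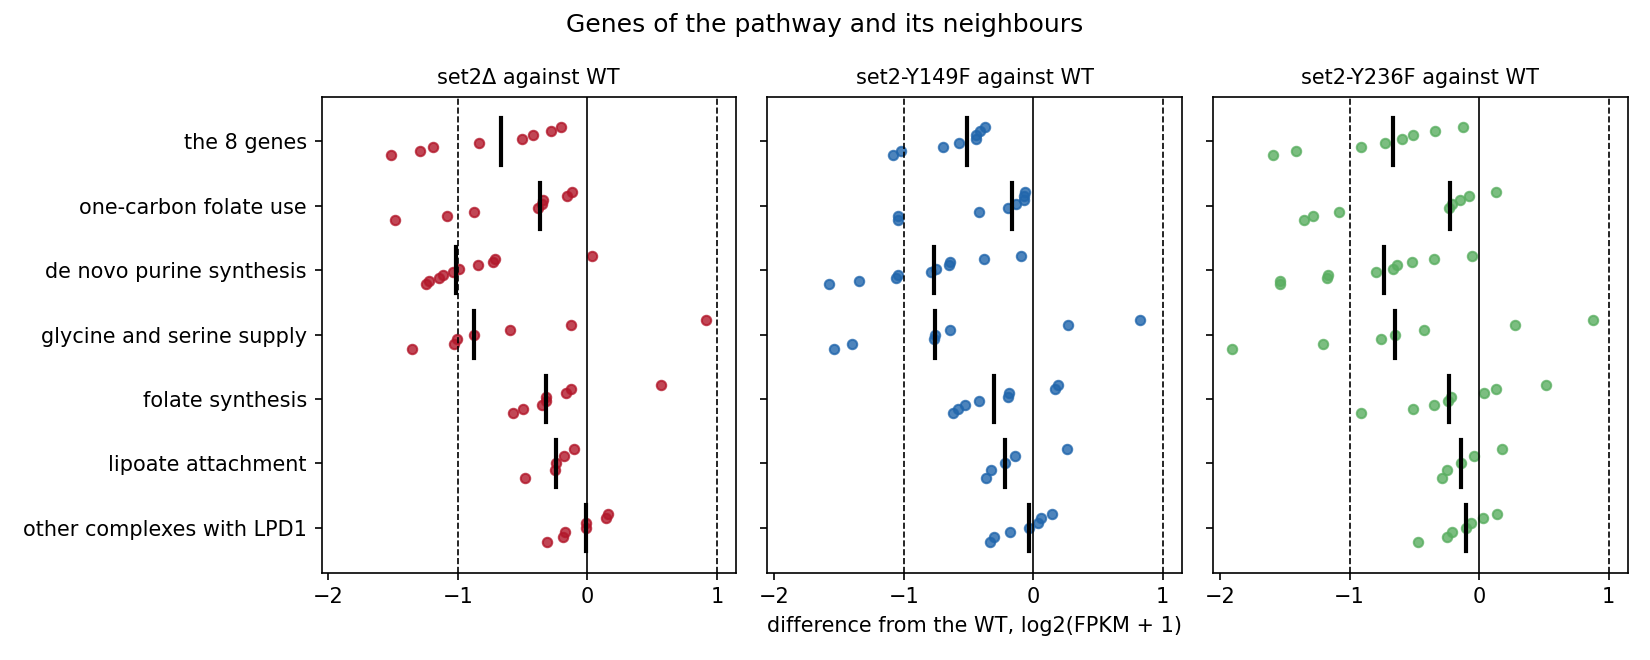
Difference of each mutant from the WT on the scale of log2(FPKM + 1) for the 8 genes and for 6 lists of related genes; each point is a gene, the black bar is the median of the list and the dashed lines mark 2-fold. De novo purine synthesis has the lowest median in set2Δ (-1.01), and the other complexes with LPD1 lie around 0.

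Of the other RefSeq genes with a mean of at least 10 FPKM, the closest to SHM2 over the 3 differences from the WT, by Euclidean distance, was MET6 (distance 0.245), followed by ADE5,7 (0.401), the phenylpyruvate decarboxylase gene ARO10 (0.466), SER3 (0.472) and the phosphatase gene PSR2 (0.489). ADE5,7 was at 184 FPKM in set2Δ, 168 FPKM in set2-Y149F and 148 FPKM in set2-Y236F, against 430 in the WT. The closest to the median profile of the 8 genes were MMP1 (0.0906), which transports S-methylmethionine, the seipin gene SEI1 (0.0935), RRD1 (0.0996), the histone H3 gene HHT1 (0.108) and TOS4 (0.115). Likeness was measured over 3 values that share the WT mean.

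No antisense transcript listed by the authors lies over any of the 8 genes. Their lists hold 777 antisense transcripts for set2Δ, 553 for set2-Y149F and 517 for set2-Y236F. Of all annotated rows, 10.4%, 7.55% and 7.09% were paired with a transcript of these lists. None was paired with the 8 genes, which for so few genes is near these shares, and none overlapped their coding sequence on either strand. The nearest was 6313 bp from SHM1, and that nearest to SHM2 in the set2Δ list was 13382 bp away. GCV2 and LPD1 had listed transcripts at 6446 and 6596 bp in set2Δ. Among the related genes, FOL1 and ABZ1 of folate synthesis and ADE5,7 have listed antisense transcripts in set2Δ. These lists hold transcripts that the authors called higher, so antisense RNA below their thresholds over the 8 genes is not covered.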

How the data were processed

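Strand-specific libraries of polyadenylated RNA were made with the dUTP method from 4 strains, with 3 libraries per strain in the labels. According to the processing notes of the submitters, reads were handled with TopHat2 2.1.1 and Cufflinks 2.2.1 on sacCer3; HTSeq 0.13.5, Trimmomatic 0.38, bedtools 2.29.2, Cuffdiff and SAMtools 1.10 are named as well. The authors deposited FPKM as 1 mean per strain for 6632 annotated rows and 777 antisense transcripts, and which program made the gene FPKM was not given in these sources. Strains were assigned from the column names. Fits with limma or edgeR were planned only in case values per library were found, and were not run. The 3 lists of antisense transcripts were used for their positions; their fold changes, CPM and p-values, and a sheet of the authors' comparison of genes, were not used.

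Differences were taken on log2(FPKM + 1) with Python 3.11.15 and pandas 2.3.3, over all annotated rows. Without an error, they were called at 2-fold. The call was tested on simulated data, which cannot show whether a difference here exceeds the spread of replicates. The pseudocount understates changes of low genes. Positions, coding sequences and upstream windows of 500 bases came from RefSeq R64, the same assembly as sacCer3. Alternatives were a pseudocount of 0.1 or 10, scaling to the same median or upper quartile, a threshold of 1.5-fold, and RefSeq rows with a mean of at least 1 FPKM. The members and lists were chosen with earlier results of these data known. The text names the 8 members, genes of 8 related lists, those past 2-fold first, and the 5 nearest profiles. Motif counts per list and the check against coding sequences were added after the data were seen.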

Additional observations from a re-analysis of the deposited data

How the results depend on the processing

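Against the WT, 93 of 96 differences of single genes kept their side of 2-fold under both pseudocounts and both scalings; the other 3 were GCV2 in set2-Y149F, which left 1 of the 8 genes lower there at a pseudocount of 10 and under either scaling. A threshold of 1.5-fold against the WT called 4 of the 8 genes lower for set2Δ, 3 for set2-Y149F and 5 for set2-Y236F. Between mutants it called 1 gene, lower for set2Δ against set2-Y149F. The share of all rows past 1.5-fold was not taken, so these counts have no background to be read against. Scaling to the same upper quartile multiplied set2Δ by 1.08 (0.11 in log2), and gave a median of -0.068 for set2Δ against set2-Y149F and of 0.0197, a reversed sign, for set2Δ against set2-Y236F, where it had been -0.139 and -0.035. The 3 medians against the WT stayed within 1.5 times under these settings. Among RefSeq rows of at least 1 FPKM, the background shares against the WT stayed within 1.5 times, and 4 of the 6 between mutants fell below that, the lowest to 0.156%. Counts of the related lists under these settings were added after the data were seen, and stand beside the lists above; 1 formate gene was 2-fold higher in each point mutant at a pseudocount of 0.1. No paired analysis was possible because the file holds 1 mean per strain; for the same reason no replicate could be left out. Depth per library is unknown, so no counting error can be given.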

Other observations

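Of the 12640 deposited means that are written with 16 significant digits, 10356 (81.9%) end in 5, and 36.8% of all 29585 non-zero means written without an exponent have 15 digits or fewer. The sum of 2 values of 15 digits, divided by 2, can end in this way. The remaining means have more than 16 digits, and their endings were not counted. The share was between 81.5% and 82.5% in each of the 4 strains. The labels give 3 libraries per strain, and the sources do not say which of them entered the means.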
